A study of Mus musculus with 10 samples.

Results

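Extracellular nucleotides and adenosine act on CD4+ T cells through a set of receptors and surface enzymes, of which 7 genes were read here: P2ry14, P2ry10, P2rx4, P2rx7, Entpd1, Nt5e and Ada. The genes were chosen on knowledge of CLP-against-sham results of these same arrays, in which P2ry14 had passed the test, so their differences between the groups are given as a description and not as independent evidence. An eighth gene, the adenosine receptor Adora2a, has no probe set under its symbol in the annotation table used and is not analysed here. The 7 genes have 16 probe sets, of 34945 probe sets that carry exactly 1 gene symbol, and every one of them was examined.

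CLP mice had their cecum ligated and punctured (CLP), a model of abdominal sepsis with mixed gut bacteria, and the control mice had a sham laparotomy. All were C57Bl/6 mice of 8 to 12 weeks under halothane, and spleens were taken 6 h after surgery. CD4+ splenocytes were enriched by magnetic depletion of other cells to about 91%, and the RNA of each mouse was hybridised to its own Affymetrix array, with 5 CLP and 5 sham mice. In such bulk samples, fewer cells of a type and less RNA per cell cannot be told apart.

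As background, ATP leaks or is released from stressed and dying cells and opens P2X channels, of which P2RX7 can form a large pore that kills T cells and P2RX4 carries calcium during T cell activation. P2Y receptors couple nucleotides to G proteins: P2RY14 binds UDP-glucose and other UDP-sugars, while P2RY10, placed in the family by its sequence, is known as a receptor for lysophosphatidylserine. On the cell surface CD39 (Entpd1) cuts ATP and ADP to AMP and CD73 (Nt5e) cuts AMP to adenosine, which dampens T cells through the receptor that Adora2a encodes, and adenosine deaminase (Ada) turns adenosine into inosine. In mice CD39 and CD73 are both abundant on regulatory T cells.

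Values are array intensities scaled to a common array median, and differences are log2 fold changes of CLP over sham with limma's standard error (SE). Signals under 70.4 were set to that floor before logs were taken, and dim probe sets were left out of the test, which kept 10 of the 16 probe sets and at least 1 for each of the 7 genes. The 6 others lay between 29.5 and 110 scaled units on every array and overlapped between the groups. They comprise 2 probe sets of P2rx4, 2 of P2rx7, 1 of Entpd1 and 1 of Nt5e. Probe sets differ in their binding, so no level is set against that of another.

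The arrays differed in a way the groups do not explain. The mean intensity of 3 control probe sets for 18S ribosomal RNA was between 1411 and 2724 on 6 arrays and between 205 and 304 on the other 4. CLP replicates 1, 3 and 5 and sham replicates 1, 3 and 5 formed the high class, and replicates 2 and 4 of both groups the low class, so each class holds both groups. The T cell markers were bright on all arrays, with a log2 signal of 10.72 ± 0.12 in CLP and 10.84 ± 0.29 in sham arrays (SD, n = 5) for Cd4. Cd8a was at 8.45 ± 0.09 in CLP and 8.36 ± 0.22 in sham arrays (SD, n = 5). Markers of other cells also gave signal. Jchain of plasma cells was at 12.81 ± 0.25 in CLP and 12.96 ± 0.21 in sham arrays (SD, n = 5). Csf1r of monocytes and macrophages was at 11.37 ± 0.27 in CLP and 11.36 ± 0.31 in sham arrays (SD, n = 5).

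P2ry14, the UDP-sugar receptor, stood highest above sham of the 10 tested probe sets. Its single probe set, 1424733_at, read 242, 922, 585, 441 and 689 in CLP replicates 1 to 5, against 225, 175, 181, 177 and 171 in sham replicates 1 to 5. The groups did not overlap, but CLP replicate 1 lay barely above sham replicate 1, and the other 4 CLP arrays lay well above all sham arrays. The mean log2 signal was 9.03 ± 0.73 in CLP and 7.53 ± 0.16 in sham arrays (SD, n = 5), so CLP mice also differed more among themselves. The log2 fold change was 1.51 ± 0.29 (SE), a ratio of 2.84.

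P2ry14 alone among the 10 tested member probe sets passed the limma threshold, an adjusted p of 0.05 over all 27022 probe sets tested, where 0.703% of all probe sets passed. Since the genes were chosen on this contrast, nothing is read from that count. P2ry14 passed without CLP replicate 1, where the log2 fold change was 1.79, and did not pass when any other single array was left out, with values from 1.30 upwards. Without a filter on dim probe sets it did not pass either, and the log2 fold change stayed at 1.51. Within the high 18S arrays the log2 fold change was 1.27 and within the low 18S arrays 1.86.

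P2ry14 is known in human neutrophils and blood progenitors, so markers of these cells were read on the same arrays. The summed signal of 9 measured neutrophil markers was 15901 in CLP replicate 1, which had the least P2ry14 of the CLP arrays, and between 3036 and 4939 in the other 4 CLP arrays. In sham arrays it was 12746 in replicate 1, which had the most P2ry14 of that group, and between 4855 and 6658 in the other 4. None of the 9 neutrophil markers and none of 3 tested markers of blood progenitors passed the test (limma, 0 of each also at an unadjusted p under 0.05), and the summed progenitor signal of 4 measured markers was 4136 to 6435 in CLP and 3836 to 6283 in sham arrays. Their part in the P2ry14 values was not tested.

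**Figure D1:**
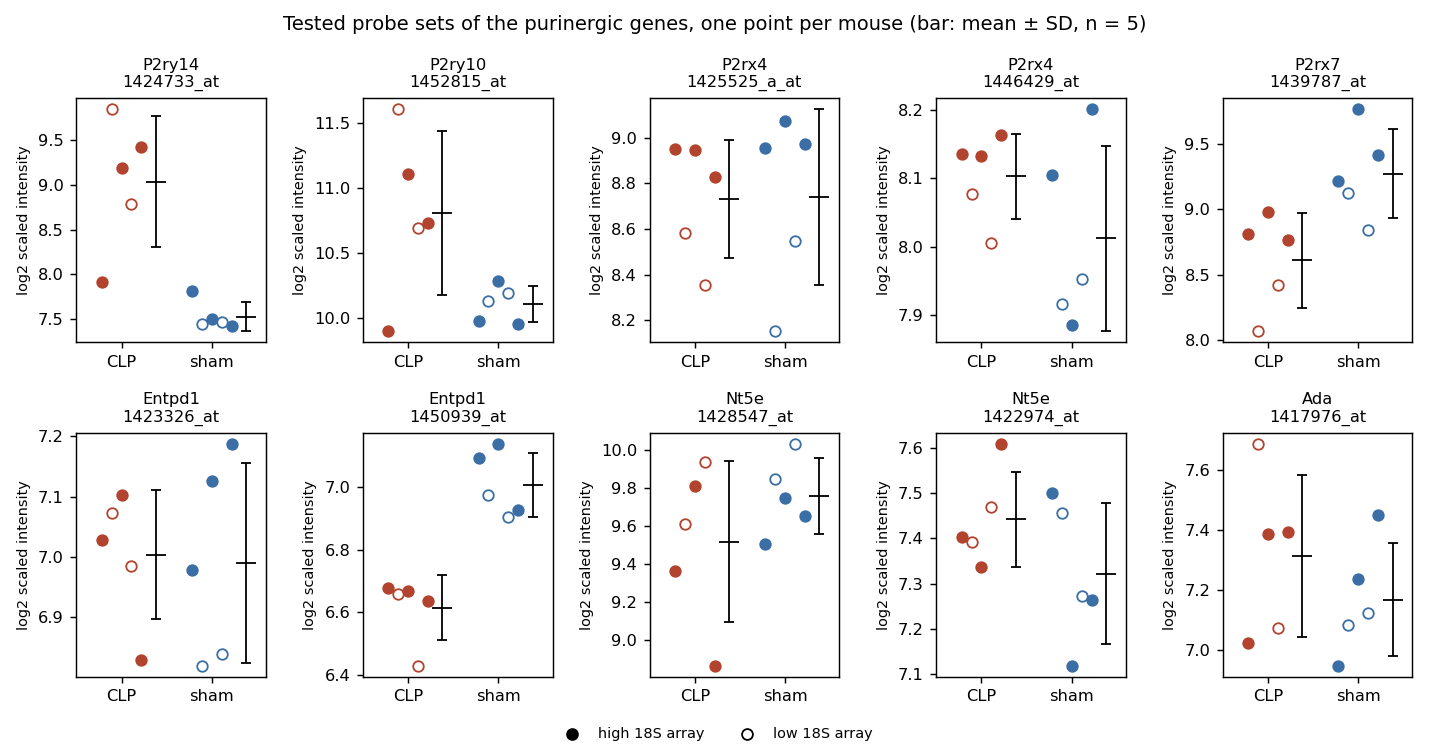
Log2 scaled intensity of each of the 10 tested probe sets in every CLP mouse (left, red) and sham mouse (right, blue); filled points are arrays with high and open points arrays with low 18S ribosomal RNA signal, and bars give mean ± SD (n = 5). Each panel has its own vertical scale. The groups separate fully only for P2ry14 (CLP above) and for 1 of the 2 Entpd1 probe sets (CLP below). Of all tested probe sets 0.862% lay wholly above and 2.11% wholly below. The genes were chosen on this contrast, and that Entpd1 probe set was kept for testing only through its sham arrays. Nothing is therefore read from these separations.

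The DNA before the P2ry14 gene is shown because P2ry14 is the member that passed the test. RefSeq gives 4 transcript starts for it on chromosome 3 of build GRCm38.p6, and the 250 bases before each were searched on both strands for 5 motifs: the interferon-stimulated response element core, the NF-kB site, TTCNNNGAA (gamma-activated site), AGAACA (glucocorticoid half-site) and TGACG (half-site of the cAMP response element). Of the 4 windows, 2 held a match, in capitals below and read 5′ to 3′ on the minus strand. The first, chr3:59131329-59131578, holds AGAACA starting 113 bases before the start, and the other, chr3:59130763-59131012, holds an NF-kB match on its opposite strand starting 103 bases before the start.
P2ry14 start 2: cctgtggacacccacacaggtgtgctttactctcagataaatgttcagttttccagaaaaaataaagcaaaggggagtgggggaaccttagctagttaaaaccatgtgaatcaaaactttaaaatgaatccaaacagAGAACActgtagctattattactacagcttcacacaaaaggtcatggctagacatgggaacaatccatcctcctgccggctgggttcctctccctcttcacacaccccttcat
P2ry14 start 4: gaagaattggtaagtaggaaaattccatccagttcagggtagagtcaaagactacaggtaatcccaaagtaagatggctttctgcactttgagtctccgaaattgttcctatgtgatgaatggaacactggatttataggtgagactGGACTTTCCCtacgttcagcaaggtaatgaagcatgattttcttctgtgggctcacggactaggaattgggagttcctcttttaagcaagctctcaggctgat
Among 32851 such windows of all genes AGAACA was found in 16.1% and the NF-kB site in 17.6%. The interferon-stimulated response element core, TTCNNNGAA and TGACG, found in 2.98%, 7.02% and 17.8% of windows, had no match in any of the 4 windows. The matches lie in different windows, and a match is a description of these letters only.

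P2ry10, the lysophosphatidylserine receptor, was higher in most but not all CLP mice. Its probe set 1452815_at read 958, 3118, 2211, 1656 and 1698 in CLP replicates 1 to 5, against 1010, 1126, 1249, 1171 and 993 in sham replicates 1 to 5. CLP replicate 1 lay below every sham array and the other 4 CLP arrays above every one. That array also had the highest summed B cell markers, at 6187 against 3300 to 3600 in the other CLP arrays, and erythroid markers, at 8571 against 2911 to 5006. Sham replicate 1 was the highest of its group in both, at 5288 and 4580. Their part in the P2ry10 and P2ry14 values was not tested. The mean log2 signal was 10.81 ± 0.63 in CLP and 10.11 ± 0.14 in sham arrays (SD, n = 5), a log2 fold change of 0.70 ± 0.25 (SE) that did not pass. It passed without CLP replicate 1 (0.92), and the smallest value with an array left out was 0.50, without CLP replicate 2.

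P2ry14 and P2ry10 ranked the CLP mice alike at the extremes, with replicate 1 lowest and replicate 2 highest in both. Over the 10 arrays, deviations from the group means had a Pearson r of 0.87 (exact permutation within groups, two-sided p = 0.0435, adjusted p = 0.407 over 21 pairs of the 7 genes) and a Spearman rho of 0.62 (exact permutation p = 0.119, adjusted p = 0.592). Without CLP replicates 1 and 2 the r was 0.01, so the relation rests on these arrays and does not pass the adjustment. Within groups and 18S classes r was 0.87 (exact permutation p = 0.146), where the smallest p possible is 0.00694. No pair among the 21 passed after adjustment.

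**Figure D2:**
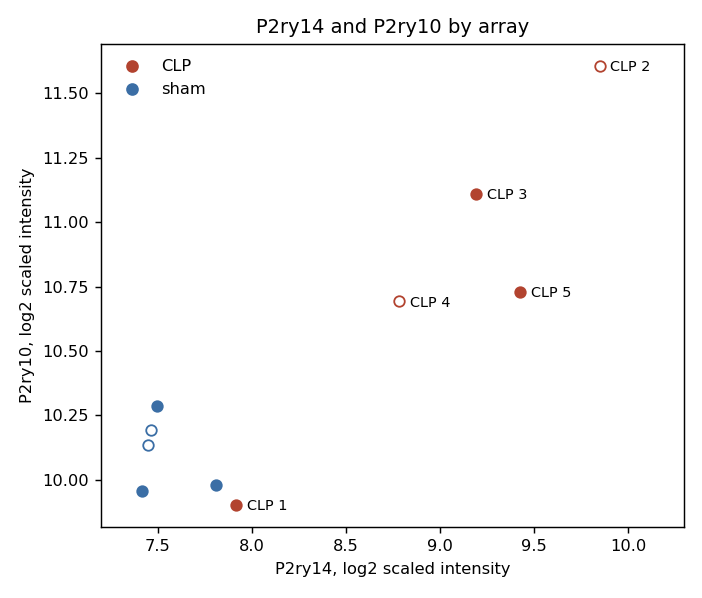
Log2 scaled intensity of P2ry14 (horizontal) against P2ry10 (vertical) on each array, CLP in red with replicate numbers and sham in blue; open points are low 18S arrays. CLP 1 lies nearest the sham arrays and CLP 2 farthest from them, and without these arrays the correlation of deviations from the group means is 0.01.

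Of all 13073 genes tested by their brightest probe set, the 3 whose deviations from the group means were most like those of P2ry14 over the 10 arrays were Map3k8 (Pearson r = 0.95), a kinase of the inflammatory MAP kinase pathway also known as Tpl2, Map6 (0.95), a microtubule-binding protein, and the clone-named C920021L13Rik (0.94). P2ry10 was in place 18 of 13072. These values describe 10 arrays that share the extremes named above. Map3k8 had a log2 signal of 10.31 ± 0.51 in CLP and 9.48 ± 0.04 in sham arrays (SD, n = 5).

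P2rx7, the ATP-gated channel linked to T cell death, was lower in CLP mice on its brightest probe set. Probe set 1439787_at read 449, 269, 505, 343 and 435 in CLP replicates 1 to 5, against 594, 558, 869, 460 and 682 in sham replicates 1 to 5. The highest CLP array, replicate 3, lay above the lowest sham array, replicate 4, and no other CLP array reached the sham range. The mean log2 signal was 8.61 ± 0.36 in CLP and 9.27 ± 0.34 in sham arrays (SD, n = 5), a log2 fold change of -0.66 ± 0.20 (SE), or 1.58 times lower, which did not pass.

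Within each 18S class the groups did not overlap for P2rx7. How many of all probe sets separate in this way was not counted, and the gene was chosen on this contrast. Nothing is therefore read from this separation. In the high class the CLP arrays lay between 435 and 505 and the sham arrays between 594 and 869, and in the low class the CLP arrays read 269 and 343 and the sham arrays 558 and 460. The log2 fold change was -0.61 in the high and -0.74 in the low class. With the class as a block in the fit P2rx7 passed, with the same log2 fold change, where 718 of all 27022 probe sets passed. In neither class alone did P2rx7 pass (limma adjusted p = 0.129 in the high and 0.544 in the low class). Its other 2 probe sets, 1422218_at and 1419853_a_at, were too dim to be tested, so no other probe set bears on this difference.

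P2rx4, the calcium-carrying ATP channel, overlapped between the groups on both tested probe sets. Probe set 1425525_a_at read 495, 383, 493, 327 and 454 in CLP replicates 1 to 5, against 496, 285, 539, 374 and 503 in sham replicates 1 to 5. The log2 fold change was -0.01 ± 0.19 (SE), and 0.09 ± 0.09 on probe set 1446429_at, which read 257 to 287 in CLP and 236 to 294 in sham arrays. On 1425525_a_at every CLP array lay inside the sham range, as it did on 1446429_at.

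P2rx4 probe set 1425525_a_at and P2rx7 probe set 1439787_at read higher on average on the high 18S arrays. On 1425525_a_at the 6 high 18S arrays lay between 454 and 539 and the 4 low 18S arrays between 285 and 383, with no overlap. On P2rx7 1439787_at the classes overlapped, at 435 to 869 in the high and 269 to 558 in the low class. In a limma fit with surgery as a covariate the log2 fold change of high over low was 0.55 ± 0.10 for P2rx4 1425525_a_at (SE, adjusted p = 0.00473). That of P2rx7 was 0.54 ± 0.12 (SE, adjusted p = 0.0144). P2rx7 no longer passed without sham replicate 4 (0.50, adjusted p = 0.0588). These were 2 of the 10 member probe sets, where 15.1% of all probe sets passed. The other tested P2rx4 probe set differed by 0.12 ± 0.08 (adjusted p = 0.366), and whether the probe sets differ was not tested. What set the classes apart was not tested.

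For P2rx4 and P2rx7, deviations from the group means had a Pearson r of 0.69 (exact permutation within groups, two-sided p = 0.0383, adjusted p = 0.407) and a Spearman rho of 0.72 (exact permutation p = 0.0165, adjusted p = 0.347), and r was 0.93 without sham replicate 2 and CLP replicate 4. Within groups and 18S classes r was -0.27 (exact permutation p = 0.562), so the relation did not hold within classes.

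**Figure D3:**
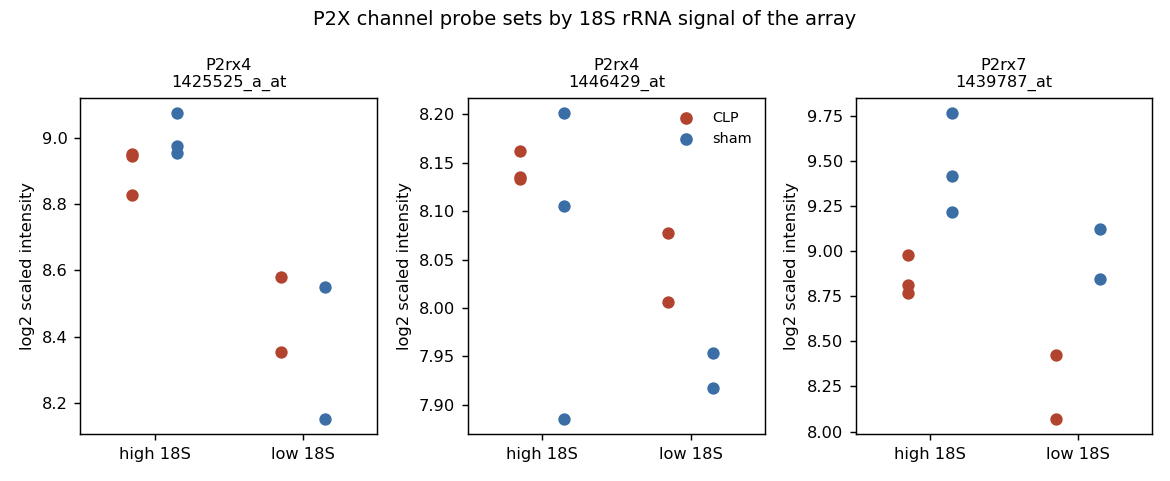
Log2 scaled intensity of the 3 tested P2X probe sets on arrays with high (left) and low (right) 18S ribosomal RNA signal, CLP in red and sham in blue; panels have their own scales. P2rx4 1425525_a_at separates by class and not by surgery, while for P2rx7 CLP lies below sham within both classes. The share of all probe sets that separate in these ways was not counted.

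Entpd1 encodes CD39, the first enzyme on the way from ATP to adenosine, and its 2 tested probe sets gave different pictures. Probe set 1450939_at read 102, 101, 102, 86.2 and 99.6 in CLP replicates 1 to 5, against 137, 126, 141, 120 and 122 in sham replicates 1 to 5. All CLP arrays lay below all sham arrays, and both groups were tight. The mean log2 signal was 6.61 in CLP and 7.01 in sham arrays, and the CLP readings lay not far above the floor of 70.4. P2rx4 1452527_a_at, at 6.67 in CLP and 6.61 in sham arrays, was left out as too dim. Entpd1 1450939_at was thus kept for testing only through its sham arrays, and nothing is read from the separation. The log2 fold change was -0.39 ± 0.09 (SE), or 1.31 times lower, and was -0.39 and -0.40 within the high and low 18S arrays. The probe set did not pass in the main fit, and did pass with the 18S class as a block and with array weights. As it was kept only through its sham arrays, nothing is read from these passes either. With the floor at the 40th percentile its log2 fold change was -0.31.

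Probe set 1423326_at of Entpd1 read 131, 135, 137, 127 and 114 in CLP replicates 1 to 5, against 126, 113, 140, 115 and 146 in sham replicates 1 to 5. The groups overlapped throughout, with a log2 fold change of 0.01 ± 0.10 (SE). Why the probe sets of this gene differed was not tested. With all tested probe sets of the gene averaged, the log2 fold change was -0.19.

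Across the 10 tested probe sets, CLP lay wholly above sham for P2ry14 and wholly below for Entpd1 1450939_at, and the groups overlapped for the other 8. Of all tested probe sets 0.862% lay wholly above and 2.11% wholly below. The genes were chosen on this contrast, and Entpd1 1450939_at was kept for testing only through its sham arrays, so nothing is read from these counts. The median log2 fold change of the 10 was 0.05, beside 0.00 for all probe sets tested, with 6 above 0 and 4 below.

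Nt5e (CD73), which makes adenosine from AMP, overlapped between the groups and did not pass. Its brightest probe set, 1428547_at, read 660, 783, 897, 981 and 467 in CLP replicates 1 to 5, against 728, 921, 860, 1047 and 805 in sham replicates 1 to 5. CLP replicate 5 was the lowest array and replicate 4 of each group the highest of its group. The log2 fold change was -0.24 ± 0.19 (SE), and -0.08 without CLP replicate 5. Probe set 1422974_at of Nt5e pointed the other way, at 0.12 ± 0.10 (SE), with 162 to 195 in CLP and 139 to 181 in sham arrays.

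Ada, which removes adenosine, read 130, 206, 168, 135 and 168 in CLP replicates 1 to 5, against 124, 136, 151, 140 and 175 in sham replicates 1 to 5. Only CLP replicate 2 lay above the sham range. The log2 fold change was 0.14 ± 0.14 (SE), and 0.05 without that array.

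Mouse regulatory T cells carry both CD39 and CD73, though not alone among CD4+ cells, so their markers were read beside these enzymes. The summed signal of 7 measured regulatory T cell markers was 4753 to 6496 in CLP and 4465 to 5974 in sham arrays, and the ranges overlapped. None of the 7 passed (limma, 4 at an unadjusted p under 0.05), and those 4 did not share a direction: Foxp3, Ctla4 and Tnfrsf18 were higher and Nrp1 lower in CLP. Foxp3, which defines these cells, had a log2 signal of 9.41 ± 0.45 in CLP and 8.31 ± 0.35 in sham arrays (SD, n = 5, adjusted p = 0.053), with all CLP arrays above all sham arrays. Nrp1 had 8.67 ± 0.52 in CLP and 9.96 ± 0.48 in sham arrays (SD, n = 5, adjusted p = 0.0616), with all CLP arrays below all sham arrays. Ctla4 differed by 1.44 (limma adjusted p = 0.0513) and Tnfrsf18 by 0.63 (limma adjusted p = 0.226) on the log2 scale, and both overlapped between the groups. The 3 remaining markers, Ikzf2, Il2ra and Ikzf4, differed by -0.29, -0.10 and -0.07 on the log2 scale. The sum over 6 T cell markers was 11850 to 12736 in CLP and 12614 to 16322 in sham arrays, with 0 of 6 passing (limma, 2 at an unadjusted p under 0.05, Cd5 at -0.69 and Cd28 at -0.35 on the log2 scale). The sum over 6 natural killer cell markers was 2248 to 2871 in CLP and 2835 to 3728 in sham arrays, with 0 of 3 tested markers passing (limma, 3 at an unadjusted p under 0.05). All 3 were lower in CLP, Klrd1 at -0.54, Eomes at -0.40 and Nkg7 at -0.24 on the log2 scale. Only for Nkg7 of these 3 did all CLP arrays lie below all sham arrays. Of all 13073 genes tested, CLP lay wholly above sham for 0.849% and wholly below for 2.28%, and 11.8% had an unadjusted p under 0.05 (limma). The sum over 9 monocyte and macrophage markers was 3762 to 4656 in CLP and 3150 to 4934 in sham arrays. Of these, 0 of 7 tested markers passed (limma, 2 at an unadjusted p under 0.05). Those 2 went opposite ways, Cd14 at 0.72 and Vcam1 at -1.20 on the log2 scale, and the other tested ones differed by -0.10 to 0.03. The part of all these cells in the Entpd1, Nt5e and P2rx7 values was not tested.

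**Figure D4:**
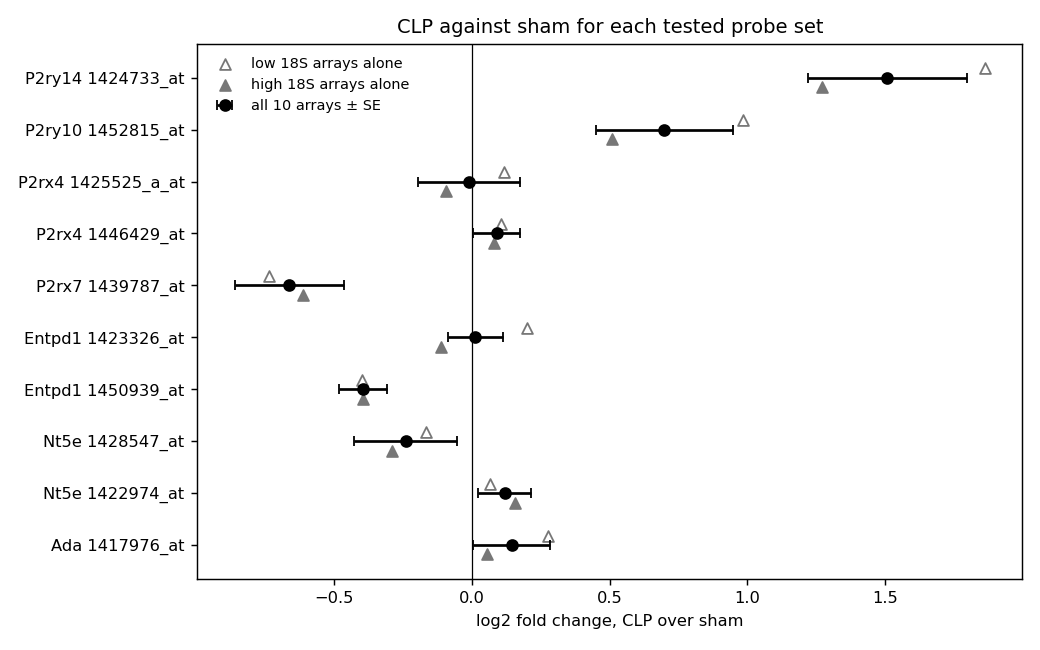
Log2 fold change of CLP over sham for each tested probe set, from all 10 arrays (black, ± SE) and as differences of means within the low (open triangles) and high (grey triangles) 18S arrays. P2ry14 lies farthest to the right at 1.51 and P2rx7 farthest to the left at -0.66. The tested probe sets of P2rx4, Entpd1 and Nt5e are shown separately, and whether those of 1 gene differ was not tested.

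The rest of the purinergic pathway was followed in 9 lists of 83 genes outside the members, of which 70 had a probe set and 58 were tested. By their brightest probe set 0 of the 58 passed in either direction (limma, adjusted over all 27022 probe sets), where 0.75% of all 13073 genes passed, and 7 of the 58 (12.1%) had an unadjusted p under 0.05, beside 11.8% of all genes. The median log2 fold change was -0.01, beside 0.00 for all genes tested. CLP lay wholly below sham for 3 of the 58, Lrrc8a, Ugp2 and Pycard (5.17%, beside 2.28% of all genes), and wholly above for 0, beside 0.849% of all genes.

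Among other receptors, 3 of 7 P2Y genes and 4 of 5 P2X genes were tested, and the 1 further adenosine receptor with a probe set, Adora3, was too dim. P2ry10b, the paralog beside P2ry10, had a log2 signal of 7.19 ± 0.13 in CLP and 7.46 ± 0.09 in sham arrays (SD, n = 5), differing by -0.28 ± 0.09 (SE, adjusted p = 0.215), opposite in sign to P2ry10. Whether the probes of these paralogs bind each other's transcript was not tested. P2ry2, a receptor for ATP and UTP, was at -0.01 ± 0.09, P2rx6 at 0.15 ± 0.09 and P2rx1 at -0.12 ± 0.14 (log2 fold change, SE). P2rx1 was at -0.28 in the high and 0.13 in the low 18S arrays alone, and at -0.02 without sham replicate 5.

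Of 9 tested surface and related nucleotide enzymes 0 passed (limma, 1 at an unadjusted p under 0.05). Entpd7, an intracellular relative of CD39, differed by -0.38 ± 0.15 on the log2 scale (SE, adjusted p = 0.339), but 2 of its 3 other probe sets pointed the other way. Entpd2 was at 0.09 ± 0.12. Dpp4 (CD26), the surface peptidase that anchors adenosine deaminase on human T cells, was at 0.03 ± 0.13.

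Of 4 tested channels and carriers that can release ATP 0 passed (limma, 1 at an unadjusted p under 0.05). Lrrc8a, the core subunit of volume-regulated anion channels, had a log2 signal of 9.80 ± 0.19 in CLP and 10.19 ± 0.09 in sham arrays (SD, n = 5), differing by -0.40 ± 0.10 (SE, adjusted p = 0.113), which passed only when CLP replicate 1 was left out (-0.47, adjusted p = 0.0289). Gja1, a connexin, was at 0.42 ± 0.39 (SE), with 0.88 in the high and -0.26 in the low 18S arrays alone. The 4 tested nucleoside transporters differed by 0.00 to 0.13, with Slc29a1, the main equilibrative carrier of adenosine, at 0.09 ± 0.09, Slc29a2 at 0.13 ± 0.12 and Slc29a4 at 0.04 ± 0.08 (log2 fold change, SE).

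Of 18 tested genes of purine salvage and breakdown 0 passed by the brightest probe set (limma, 2 at an unadjusted p under 0.05). Ampd3, an AMP deaminase, was at -0.36 ± 0.16 and Dguok, the mitochondrial deoxyguanosine kinase, at -0.32 ± 0.12 (log2 fold change, SE, adjusted p = 0.421 and 0.324). Samhd1, which breaks down deoxynucleotides, was at 0.00 ± 0.08 on its brightest probe set, while a dimmer one, 1418131_at, rose to a log2 signal of 12.12 ± 0.18 in CLP, against 11.50 ± 0.08 in sham arrays (SD, n = 5), by 0.62 ± 0.10 (SE, limma adjusted p = 0.0279). That probe set was singled out after its values were seen. Of the 4 other tested probe sets of Samhd1, 3 were opposite in sign to the brightest, which lay just below 0. With all tested probe sets of Samhd1 averaged, the log2 fold change was 0.34.

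Of 9 tested genes that supply UDP-sugars, the ligands of P2RY14, 0 passed (limma, 1 at an unadjusted p under 0.05). Ugp2, which makes UDP-glucose, had a log2 signal of 8.43 ± 0.10 in CLP and 8.77 ± 0.20 in sham arrays (SD, n = 5), differing by -0.34 ± 0.10 (SE, adjusted p = 0.185). Its 4 other tested probe sets had the same sign. The value was -0.51 in the high and -0.08 in the low 18S arrays alone. Uxs1, which turns UDP-glucuronate into UDP-xylose, was at -0.19 ± 0.09, with 1 of its 2 other probe sets opposite in sign and an average of -0.02, and the UDP-galactose carrier Slc35a2 at 0.00 ± 0.26.

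Of 7 tested inflammasome genes, which P2RX7 engages in macrophages, 0 passed (limma, 1 at an unadjusted p under 0.05). Pycard (ASC), the adaptor of the inflammasome, had a log2 signal of 9.89 ± 0.17 in CLP and 10.45 ± 0.27 in sham arrays (SD, n = 5), differing by -0.57 ± 0.14 (SE, adjusted p = 0.0967). It passed with the 18S class as a block (adjusted p = 0.0449). Its other probe set had the opposite sign, and averaging the pair gave -0.26. Casp1 was at -0.24 ± 0.13 (SE).

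**Figure D5:**
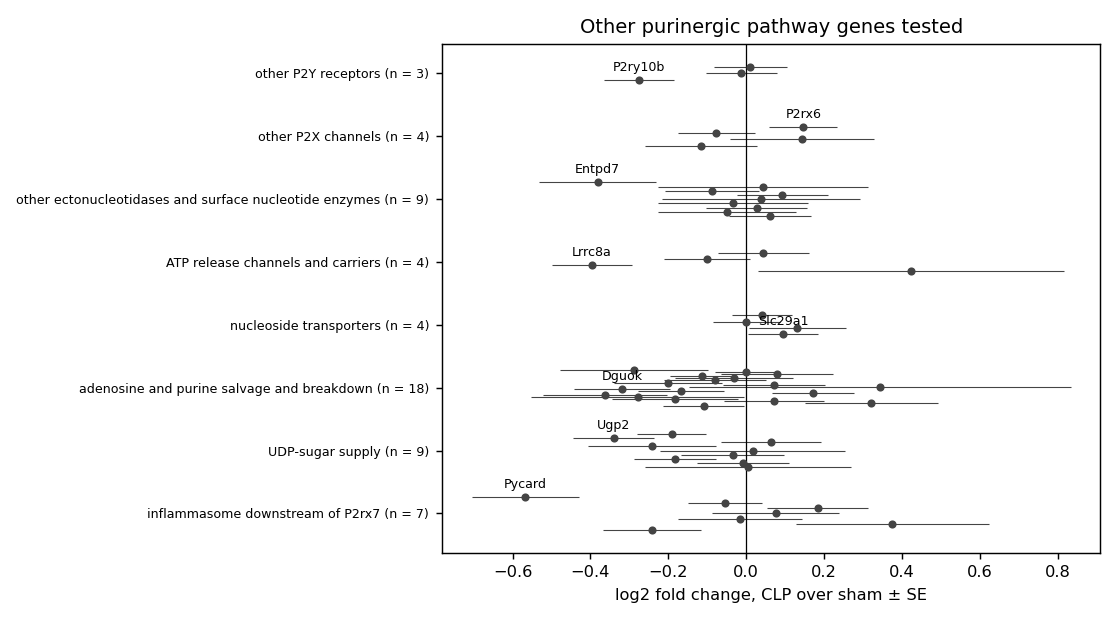
Log2 fold change of CLP over sham (± SE) for the 58 tested pathway genes outside the members, by list, each gene by its brightest probe set; the gene with the lowest p of each list is named. None passed the limma threshold, and the values lie between -0.57 and 0.42.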

How the data were processed

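Each mouse's CD4+ splenocyte RNA went onto an Affymetrix array of its own, as biotin-labelled cRNA made in 2 rounds of amplification, per the labels' protocols. The deposited values are linear intensities per probe set; the authors' software, background correction and scaling were not given in the sources used here. Precision is limited by the number of arrays.

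Of 45101 probe sets 64 were controls, 34945 had 1 symbol, 932 several and 9160 were unnamed here. Symbols were checked by Entrez identifier against RefSeq genes of GRCm38.p6 (204 without a match, 0 changed). Arrays were scaled to a common median (deposited medians 127.6 to 142.4), values were floored at the 25th percentile, then put on the log2 scale. Controls were dropped, as were probe sets whose average log2 signal fell below the 40th percentile. The 27022 probe sets left were fitted with limma 3.58.1 in R 4.3.3, with Benjamini-Hochberg adjustment over all of them and a threshold of 0.05. A gene outside the members is read by its brightest tested probe set.

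Named were all member probe sets, of each pathway list the genes that passed, the 2 with the lowest p and the brightest, and for P2ry14 the 3 genes most like it; marker genes were named to show the makeup of the samples, after their values were seen. Members and lists were chosen with earlier results of these data known, and the fit of the 18S classes was added after the data were seen. Correlations used 14400 exact arrangements within groups. Replicate numbers of CLP arrays are those of the titles. All sham titles read biological replicate 1 and differ only in a suffix, sham-1 to sham-5, which was taken as the sham number. Each array is an individual mouse per the labels. Figures were drawn with matplotlib 3.10.9.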

Additional observations from a re-analysis of the deposited data

Results flagged for a closer look

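Among 60 combinations of group and probe set, 4 held an array far from the other 4 of its group (a gap over 0.71 of the group's range, Dixon's criterion), where chance gives about 1 in 20. P2ry14 in sham replicate 1 was at a log2 signal of 7.81, against 7.42 to 7.50 in the other sham arrays. Entpd1 1450939_at in CLP replicate 4 was at 6.43, against 6.64 to 6.68 in the other CLP arrays. Entpd2 in sham replicate 5 was at 7.87, against 7.55 to 7.58, and Slc29a2 in sham replicate 3 at 7.56, against 7.82 to 7.87, in the other sham arrays. Sham replicate 1 and CLP replicate 1 were the arrays with the highest summed neutrophil markers of their groups.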

How the results depend on the processing

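Quantile normalization, no scaling, other floors, a stricter filter and a trended variance kept P2ry14 as the 1 member that passed and left the counts over all probe sets (190) and genes (98) within a factor of 1.5. With the 18S class as a block 718 of 27022 probe sets and 355 of 13073 genes passed. Among them were 3 of the 10 tested member probe sets (P2ry14, P2rx7 and Entpd1 1450939_at) and 1 of the 58 other pathway genes (Pycard). With array weights 509 of 27022 probe sets and 247 of 13073 genes passed, 2 of them member probe sets. The members were chosen on this contrast, and Entpd1 1450939_at was kept only through its sham arrays. Nothing is therefore read from the member counts in any setting. Without a filter 3 probe sets and 1 gene passed, and in each 18S class alone 0 and 0, in all 3 cases with 0 member probe sets by limma. At an unadjusted p under 0.05 there were 3676 probe sets without a filter, 3611 in the high class alone (6 arrays) and 1959 in the low class alone (4 arrays). The cause of the other shifts was not tested. With a replicate block 248 probe sets and 119 genes passed, and the 1 member probe set was then P2rx7 and not P2ry14 (limma adjusted p = 0.0557). Pairing was not taken up in the main fit. Of the 5 same-numbered pairs 4 had a correlation of deviations over 0.1 and 1 lay under it (range 0.06 to 0.58). These values do not settle whether the arrays were paired. Same-numbered arrays always share the 18S class, and the mean correlation was 0.28 for the same number, 0.33 for other numbers of the same class and -0.33 across classes. Of the 5 CLP arrays, 1 correlated best with its own number. Leaving out each array in turn gave 4 to 506 probe sets, 2 to 246 genes, 0 to 2 member probe sets, 0 to 1 other pathway genes and, between 18S classes, 1 to 2 member probe sets. Of 30 log2 fold changes followed over up to 23 settings, 22 kept their sign in all; the 8 that did not include P2rx4 1425525_a_at and Entpd1 1423326_at.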
